A study of Homo sapiens with 18 samples.

Results

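The comparison described here set HL-60 cells treated with NTX-301 directly against HL-60 cells treated with decitabine (DAC), with no solvent control in the contrast. HL-60 is an established human promyelocytic leukaemia line. By their labels, 3 samples carried NTX-301 and 3 carried DAC, 6 of the 18 samples of the series. The remaining samples were 3 HL-60 cultures with the solvent DMSO and the same 3 treatments, 3 samples each, in MOLM-13, a second acute myeloid leukaemia line. Treatment lasted 48 h, sampling was on day 2, and total RNA was sequenced with a stranded kit. The labels give 30 nM as the concentration used on HL-60, against 15 nM on MOLM-13, and do not say whether NTX-301 was used at the same concentration as DAC. A difference between the compounds and a difference between their doses cannot be told apart. The labels describe triplicate wells and do not say that they came from separate cultures, so p-values measure only the spread between these samples, which may be technical.

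Decitabine is a cytidine analogue that cells phosphorylate and build into new DNA, where it traps DNA methyltransferases, so that methylation is lost as cells divide. NTX-301 is an inhibitor of the same enzymes. Such drugs are known in myeloid leukaemia for switching on methylated germline genes, for an interferon-type response and for a slow shift in differentiation. Promyelocytes are the stage at which the proteases and peroxidases of the primary granules are made.

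Values were normalized expression on a log2 scale, on which a difference of 1 is a doubling, and low genes varied little between samples, as on a compressed scale, so that their differences may be understated. Differences are given as NTX-301 minus DAC with their standard error (SE), and a gene was called when its adjusted p-value (limma, Benjamini-Hochberg over all genes tested) was under 0.05. Of 17110 genes listed for HL-60, 17046 were tested. The median SD over replicates was 0.027 with NTX-301 and 0.028 with DAC. All 8 promyelocyte markers were listed, with mean log2 values from 11.64 to 18.57. Of markers of other cell types, the files listed CD4 and NKG7 of 8 for T or NK cells, 1 of 5 each for B cells (CD79A), erythroid cells (KLF1), megakaryocytes (ITGA2B), epithelium (KRT8) and endothelium (PECAM1), and 0 of 5 for fibroblasts. In bulk RNA, fewer cells of a type and less RNA per cell cannot be told apart.

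The drugs differed in many HL-60 genes by small amounts and in few by large ones. limma called 5185 of 17046 genes, or 30.4%, of which 2622 (15.4%) were higher with NTX-301 and 2563 (15.0%) lower. The median size of a called difference was 0.14 on the log2 scale. Only 710 called genes differed by at least 0.25, 101 by at least 0.5 and 5 by at least 1. The 3 NTX-301 values did not overlap the 3 DAC values in 44.4% of genes, 22.2% in each direction. The share called rose with level, from 4.26% of genes with a mean of up to 4 to 49.9% of those above 12. Among annotated classes, 38.9% of 11799 protein-coding genes were called, against 15.2% of 2101 long non-coding RNAs. The split by direction depended on the scale: after each sample was centred on its median, which moved the median difference over all genes by -0.029, the calls were 1818 higher and 4860 lower. Counts on that scale are given below for the lists whose balance moved most, and are to be read beside that turn over all genes. Every list count as deposited is to be read against the shares over all genes, 15.4% higher and 15.0% lower.

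**Figure D1:**
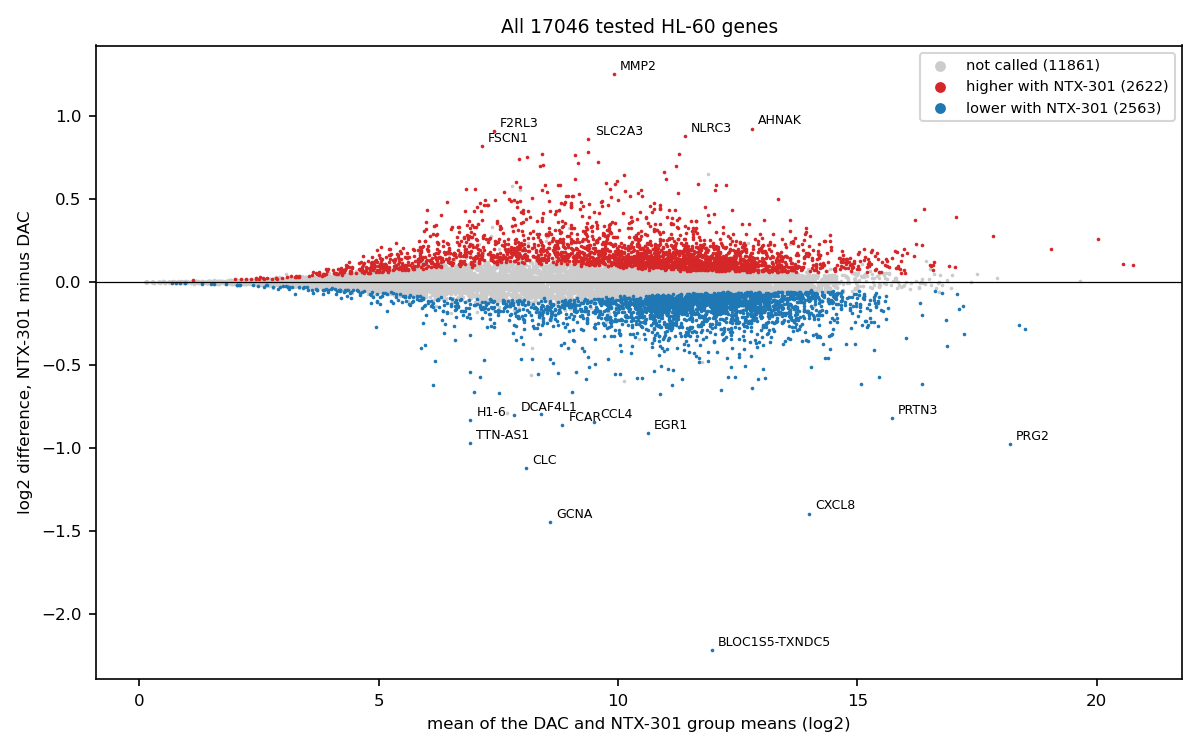
Each point is 1 of the 17046 tested HL-60 genes, with the mean of the DAC and NTX-301 group means on the x axis and the difference NTX-301 minus DAC on the y axis, both log2. Called genes are red (2622 higher with NTX-301) or blue (2563 lower); low genes lie close to 0, and MMP2, GCNA, CXCL8 and BLOC1S5-TXNDC5 stand farthest out.

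The genes highest with NTX-301 were led by MMP2, AHNAK, F2RL3 and NLRC3. The 12 highest and 12 lowest genes were picked among called genes whose NTX-301 and DAC values did not overlap. Separation of the drugs in these genes was thus set by the choice, and only the place of DMSO was not. MMP2 encodes gelatinase A, a secreted protease that cuts basement membrane collagen. Its 3 NTX-301 values were 10.54, 10.52 and 10.55, against 9.35, 9.21 and 9.31 with DAC and 9.15, 9.23 and 9.13 with DMSO. The NTX-301 values stood above all others, and the DAC values overlapped those of DMSO. The difference was 1.25 (SE 0.040, adjusted p = 1.62e-10, limma), or 2.38-fold on this scale. AHNAK, a giant scaffold protein beneath the plasma membrane, read 13.26, 13.26 and 13.25 with NTX-301, 12.35, 12.28 and 12.37 with DAC and 11.95, 11.86 and 11.87 with DMSO. The DMSO values lay below those of both drugs, and NTX-301 exceeded DAC by 0.92. F2RL3, which encodes a thrombin receptor of platelets, followed at 0.91, with 7.76 to 7.96 with NTX-301 and 6.89 to 6.99 with DAC.

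For a pair of the highest genes, DAC lay below the solvent and NTX-301 above it. NLRC3, a NOD-like receptor that dampens innate signalling, averaged 11.83 ± 0.035 with NTX-301, 10.96 ± 0.053 with DAC and 11.25 ± 0.033 with DMSO (SD, n = 3). CD48, a surface ligand of the SLAM family, read 9.76, 9.76 and 9.77, then 9.04, 8.99 and 8.91, then 9.24, 9.26 and 9.20 with NTX-301, DAC and DMSO. NTX-301 exceeded DAC by 0.88 in NLRC3 (SE 0.031, adjusted p = 3.49e-10, limma) and by 0.78 in CD48. SLC2A3, the glucose transporter GLUT3, differed by 0.86, with DAC values that overlapped those of DMSO. The remaining 6 genes among the 12 highest rose in the order DMSO, DAC, NTX-301 with no overlap between groups. They were the actin bundler FSCN1 (0.82), the sialic acid-binding lectin SIGLEC6 (0.77), RHEX, a regulator of erythroid cell expansion (0.77), PLEKHO1 (0.76), galectin-1 or LGALS1 (0.75) and the motor protein KIFC3 (0.74). In all 12, the NTX-301 values lay above all DMSO values.

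**Figure D2:**
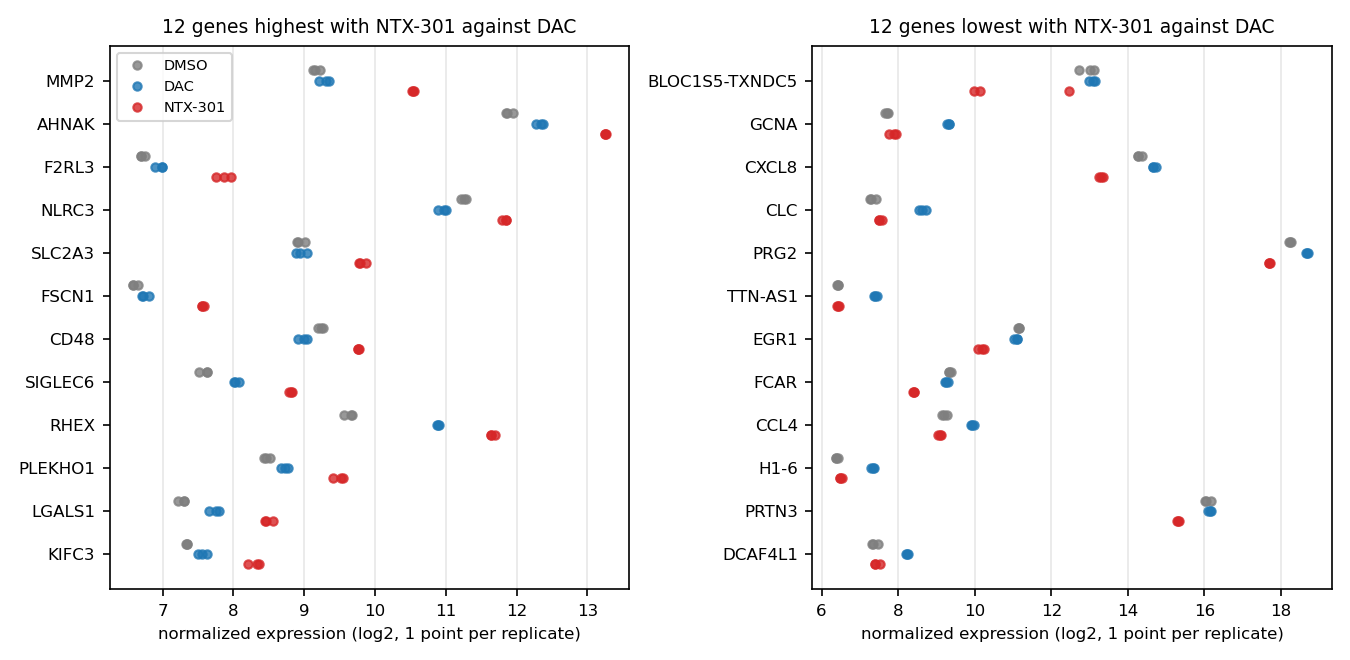
Normalized expression (log2, x axis) of the 12 genes at either end of the differences, 1 point per replicate, coloured by treatment. The genes were picked among those whose NTX-301 and DAC values did not overlap. With NTX-301, all 12 genes of the first panel also lie above DMSO, whereas in the second panel DMSO lies now beside NTX-301, now beside DAC.

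The genes lowest with NTX-301 fell into patterns that differed in where the solvent lay. In 3 of the 12, CXCL8, PRG2 and CCL4, DAC was above DMSO and NTX-301 below it. In 5, GCNA, CLC, H1-6, TTN-AS1 and DCAF4L1, DAC was above DMSO and NTX-301 was only slightly above it or overlapped it. In EGR1 and FCAR, NTX-301 was below DMSO. The DAC values lay just below those of DMSO, by differences of -0.06 and -0.07 that limma did not call. PRTN3 and BLOC1S5-TXNDC5 had DAC values that overlapped DMSO and NTX-301 values below both.

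BLOC1S5-TXNDC5, a readthrough transcript of neighbouring genes, had the lowest difference, -2.22 (SE 0.442, adjusted p = 0.0017, limma), and its value is uncertain because reads can be split between it and those genes. Its NTX-301 values were 12.47, 9.97 and 10.13, and its DAC values 13.15, 12.99 and 13.08. Without NTX-301 replicate 1 the difference was -3.02, and without replicate 2 it was -1.77. The component genes moved the other way, TXNDC5 by 0.23 and BLOC1S5 by 0.18.

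GCNA and CLC show the pattern in which DAC stood apart. GCNA, a germ cell nuclear protein with a protease domain, read 9.28, 9.32 and 9.33 with DAC, 7.77, 7.93 and 7.89 with NTX-301 and 7.74, 7.71 and 7.66 with DMSO. NTX-301 was below DAC (difference -1.45, SE 0.045, adjusted p = 1.62e-10, limma), and its lowest value lay just above the highest DMSO value. CLC, galectin-10 of the Charcot-Leyden crystals of eosinophils, read 8.73, 8.55 and 8.63 with DAC, 7.57, 7.49 and 7.49 with NTX-301 and 7.42, 7.29 and 7.26 with DMSO, a difference of -1.12 (SE 0.053). The testis linker histone gene H1-6 differed by -0.83, with 6.47 to 6.54 with NTX-301, 7.28 to 7.37 with DAC and 6.37 to 6.44 with DMSO. TTN-AS1, an RNA antisense to titin, differed by -0.97. Whether the counting used strand was not given in the sources used here, so reads of TTN-AS1 and of its sense partner may not be separated.

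The promoters of GCNA and CLC are shown because the drugs act on methylation at CG dinucleotides and these promoters lie far apart in their number of them. Both stretches are the 250 bases before the annotated start in RefSeq (GRCh38.p14), at chrX:71578187-71578436 on the plus strand and chr19:39738030-39738279 on the minus strand, written along the gene's strand with every CG in capitals.
GCNA: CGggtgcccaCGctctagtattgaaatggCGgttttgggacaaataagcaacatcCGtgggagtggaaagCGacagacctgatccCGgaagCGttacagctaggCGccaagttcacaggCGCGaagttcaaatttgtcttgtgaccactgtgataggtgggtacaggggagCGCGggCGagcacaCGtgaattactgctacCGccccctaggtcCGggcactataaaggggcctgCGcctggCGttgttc
CLC: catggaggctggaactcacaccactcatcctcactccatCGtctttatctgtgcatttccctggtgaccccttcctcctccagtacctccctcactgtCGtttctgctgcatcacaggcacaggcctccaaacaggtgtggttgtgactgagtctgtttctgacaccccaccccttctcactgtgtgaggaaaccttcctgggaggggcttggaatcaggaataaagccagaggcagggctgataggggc
The GCNA stretch held 18 CG and the CLC stretch 2. Over the 10992 tested genes with a promoter in the table, the median was 20. It was 17 for the 280 genes called higher by at least 0.25 and 23 for the 240 called lower by at least 0.25. No methylation was measured, and these counts describe the sequence alone.

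Few other germline genes could be examined. Of 45 germline and cancer-testis genes, 6 were listed, and 4 of these were lower with NTX-301 and 1 higher. Unlisted genes had no value for HL-60, so nothing can be said of them. Beside GCNA, MAGEB2, a member of the MAGE family, read 8.80, 8.91 and 8.88 with NTX-301, 9.37, 9.43 and 9.40 with DAC and 8.76, 8.72 and 8.74 with DMSO. The groups of the drugs did not overlap, and the difference was -0.54 (adjusted p = 1.54e-07, limma). TEX15 and HORMAD1, both of meiosis, differed by -0.16 and -0.07. PRAME, a tumour antigen, was the exception at 0.21, with 12.15 to 12.22 with NTX-301 and 11.94 to 11.98 with DAC.

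Granule proteins were the list with the highest share of members lower with NTX-301. Of 34 members, 22 were listed and tested, 17 were lower and 1 higher, with a median difference of -0.29 against 0.00045 over all genes. All 4 listed eosinophil granule genes were lower, as were 13 of the 17 genes listed under the primary granule, which include RNASE3, the eosinophil cationic protein. Of 12 secondary and tertiary granule genes, only HP was listed, and it did not pass the test. The summed linear value of the 8 promyelocyte markers, 5 of which are in this list, was 417185 to 427281 with NTX-301, 536278 to 537648 with DAC and 537849 to 571666 with DMSO, and its part in these differences was not tested. MPO, at a mean log2 value of 18.57 against 15.84 for PRTN3, the next highest, makes up most of this sum.

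PRG2, the eosinophil major basic protein, was an abundant transcript, at 17.69, 17.69 and 17.72 with NTX-301, 18.67, 18.64 and 18.71 with DAC and 18.21, 18.26 and 18.23 with DMSO. Its difference of -0.98 had an SE of 0.021 (adjusted p = 2.53e-12, limma), and DMSO lay between the drugs. EPX, the eosinophil peroxidase, differed between all groups: 8.49, 8.52 and 8.55 with DMSO, 11.25, 11.20 and 11.22 with DAC and 10.53, 10.50 and 10.61 with NTX-301. NTX-301 was thus lower than DAC by a difference of -0.67 (adjusted p = 9.77e-09, limma), at a level well above the solvent. RNASE2, the eosinophil-derived neurotoxin, differed by -0.38.

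Among primary granule genes the solvent lay nearer DAC. PRTN3, proteinase 3, read 15.28, 15.31 and 15.33 with NTX-301, 16.14, 16.16 and 16.08 with DAC and 16.03, 16.03 and 16.16 with DMSO. The NTX-301 values lay below all others, and the difference was -0.82 (SE 0.033, adjusted p = 9.94e-10, limma). Neutrophil elastase (ELANE) differed by -0.51, azurocidin (AZU1) by -0.45, lysozyme (LYZ) by -0.32, cathepsin G (CTSG) by -0.30 and myeloperoxidase (MPO) by -0.28. The granule proteoglycan serglycin (SRGN) differed by -0.62. The defensins DEFA1, DEFA1B and DEFA3 were also lower, but as near-identical copies their values are uncertain. HEXA, a lysosomal enzyme, was the only member called higher, at 0.10, and that call was lost after centring, without DAC replicate 2 and without NTX-301 replicate 3. FCAR, the IgA receptor of myeloid cells, which is outside the list, read 8.41, 8.39 and 8.40 with NTX-301, 9.23, 9.30 and 9.26 with DAC and 9.32, 9.33 and 9.37 with DMSO.

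Immediate-early transcription factors, which cells switch on within minutes of a stimulus, were lower with NTX-301 or not called. Of 36 listed AP-1 and immediate-early genes, 17 were lower and 3 higher (median difference -0.043). Among the 18 transcription factors, 10 were lower and 0 higher. EGR1 read 10.18, 10.24 and 10.09 with NTX-301, 11.11, 11.10 and 11.04 with DAC and 11.15, 11.13 and 11.16 with DMSO. NTX-301 stood alone below the rest, by a difference of -0.91 (SE 0.036, adjusted p = 9.94e-10, limma). EGR3 differed by -0.67, FOS by -0.58, FOSB by -0.55 and NR4A2 by -0.35. FOSB values with both drugs lay below DMSO: 8.42, 8.59 and 8.43 with NTX-301, 9.02, 9.14 and 8.92 with DAC and 9.65, 9.39 and 9.44 with DMSO. JUN, the partner of FOS in the AP-1 dimer, differed by 0.06 and was not called. The 3 members called higher were BTG2, an antiproliferative factor (0.50), and the phosphatases DUSP4 (0.29) and DUSP6 (0.21), which switch off ERK signalling.

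**Figure D3:**
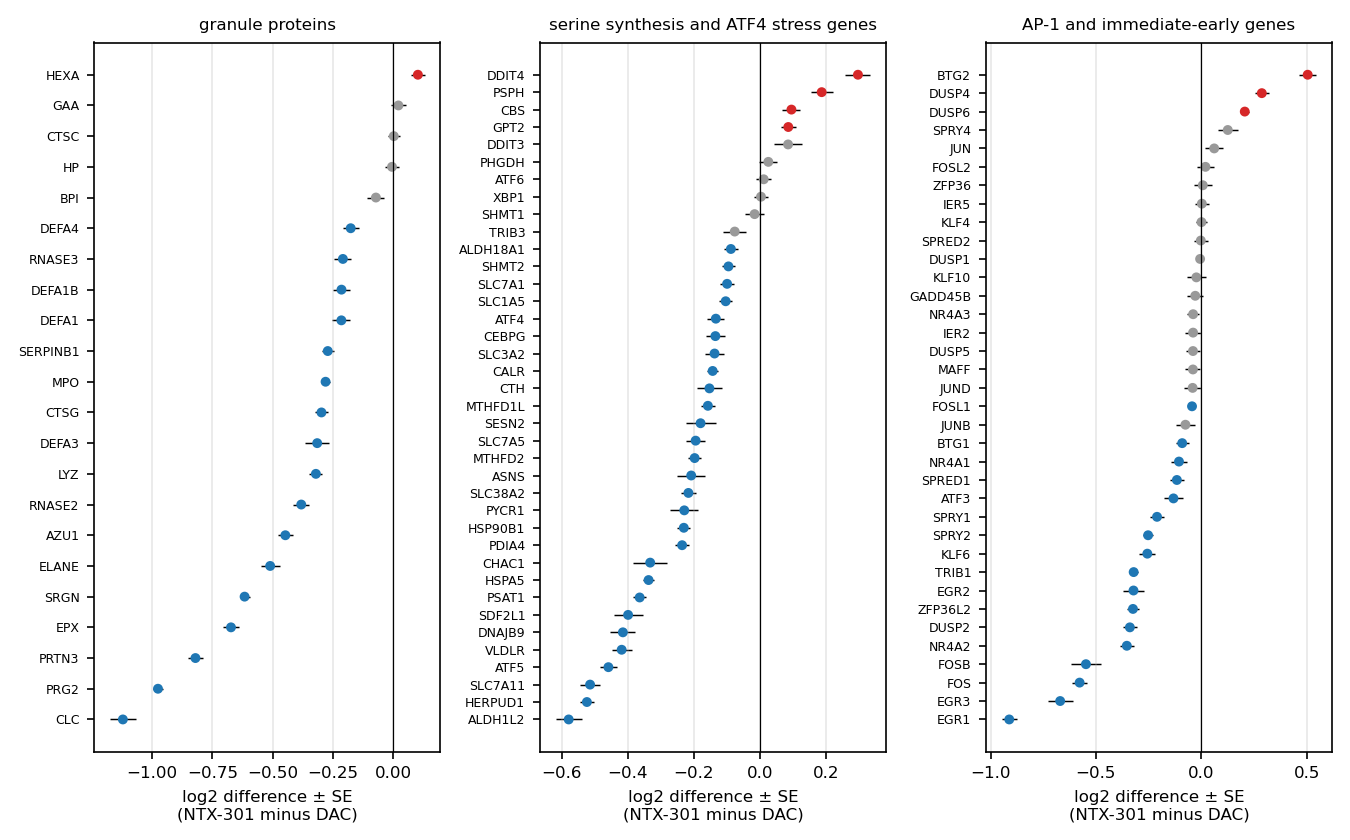
Differences (NTX-301 minus DAC, log2, x axis) with SE bars for every tested member of 3 lists, with called members in red (higher) or blue (lower) and the others in grey. CLC, ALDH1L2 and EGR1 mark the lowest end of the granule, ATF4 and immediate-early lists at -1.12, -0.58 and -0.91.

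Inflammatory genes did not move as a block. Of 42 listed NF-kB and inflammatory genes, 13 were higher and 13 lower with NTX-301. That was 31.0% in each direction, against 15.4% and 15.0% of all genes. The lower members included the neutrophil chemokine CXCL8 (-1.39), the macrophage chemokines CCL4 (-0.84) and CCL3 (-0.37), the cytokine TNF (-0.65), the prostaglandin synthase PTGS2 (-0.49) and NFKBIA, the inhibitor of NF-kB (-0.44). The higher members included the cytokine IL1B (0.49) and the NF-kB target TNFAIP2 (0.44). CXCL8 read 13.30, 13.35 and 13.24 with NTX-301, 14.67, 14.66 and 14.75 with DAC and 14.37, 14.26 and 14.27 with DMSO. The DMSO values lay between those of the drugs and overlapped neither, and the difference had an SE of 0.035 (adjusted p = 1.25e-11, limma). CCL4 has a near-identical copy, CCL4L2, which differed by -0.66, so reads may be shared between them. IL1B averaged 8.08 ± 0.102 with NTX-301, 7.59 ± 0.038 with DAC and 7.58 ± 0.048 with DMSO (SD, n = 3).

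The CXCL8 promoter is shown because it carries letters of both an AP-1 and an NF-kB element in the 250 bases before its start (chr4:73740319-73740568, plus strand, RefSeq, GRCh38.p14), each in capitals.
CXCL8: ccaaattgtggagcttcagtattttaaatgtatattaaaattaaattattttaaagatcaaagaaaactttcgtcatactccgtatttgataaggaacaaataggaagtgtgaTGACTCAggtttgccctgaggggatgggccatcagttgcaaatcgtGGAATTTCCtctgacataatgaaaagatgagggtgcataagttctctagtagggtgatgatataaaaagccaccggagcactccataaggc
The AP-1 letters searched were TGANTCA and the NF-kB letters GGNNTTTCC, both on either strand, and in CXCL8 they lie 137 and 91 bases before the start. The AP-1 letters occurred in 3.77% of promoters of tested genes and in 4 of 34 promoters of the inflammatory list. The NF-kB letters occurred in 5.85% of promoters of tested genes and in 13 of those 34. Of these 13 genes, 4 were called higher, 4 lower and 5 not at all. Because the list was drawn up around NF-kB, a raised share of its letters can follow from the choice of genes. A match is a description and not a bound site.

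Amino acid supply and stress genes under the transcription factor ATF4 were mostly lower with NTX-301. Of 38 listed members, 28 were lower and 4 higher, with a median difference of -0.15. They included ALDH1L2 of mitochondrial folate metabolism (-0.58), SLC7A11, the cystine transporter (-0.51), PSAT1 of serine synthesis (-0.36) and the folate enzyme MTHFD2 (-0.20). Chaperones and regulators of the endoplasmic reticulum were lower too, with HERPUD1 at -0.52, DNAJB9 at -0.41 and HSPA5 at -0.34. ATF5 differed by -0.46 and ATF4 itself by -0.13. ALDH1L2 read 10.22, 10.24 and 10.19 with NTX-301, 10.84, 10.80 and 10.74 with DAC and 10.77, 10.69 and 10.61 with DMSO. HERPUD1 read 12.73, 12.78 and 12.78, then 13.30, 13.26 and 13.30, then 13.36, 13.39 and 13.40. In both genes the NTX-301 values lay below all others (adjusted p = 1.27e-07 and 1.57e-09, limma). PHGDH, the first enzyme of serine synthesis (0.03), and the stress factors DDIT3 (0.09) and XBP1 were not called. PSPH, the last enzyme of serine synthesis, and DDIT4, an inhibitor of mTORC1, were higher, by 0.19 and 0.30.

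The promoters of ASNS, CHAC1 and HERPUD1 are shown for the letters TGATGNAA, those of the C/EBP-ATF composite element through which ATF4 is known to act, in capitals on either strand. They are the 250 bases before the start in RefSeq (GRCh38.p14): chr7:97872409-97872658 on the minus strand, chr15:40953221-40953470 on the plus strand and chr16:56931892-56932141 on the plus strand.
ASNS: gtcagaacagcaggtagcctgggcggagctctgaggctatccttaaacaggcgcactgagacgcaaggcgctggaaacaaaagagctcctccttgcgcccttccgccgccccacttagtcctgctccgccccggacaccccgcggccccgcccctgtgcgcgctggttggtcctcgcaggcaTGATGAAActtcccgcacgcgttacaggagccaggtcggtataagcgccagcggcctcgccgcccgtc
CHAC1: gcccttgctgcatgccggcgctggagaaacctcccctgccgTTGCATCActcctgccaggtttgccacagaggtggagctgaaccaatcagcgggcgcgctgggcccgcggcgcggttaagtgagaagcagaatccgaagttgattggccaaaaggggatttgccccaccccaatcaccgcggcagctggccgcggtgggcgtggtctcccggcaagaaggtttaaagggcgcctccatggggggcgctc
HERPUD1: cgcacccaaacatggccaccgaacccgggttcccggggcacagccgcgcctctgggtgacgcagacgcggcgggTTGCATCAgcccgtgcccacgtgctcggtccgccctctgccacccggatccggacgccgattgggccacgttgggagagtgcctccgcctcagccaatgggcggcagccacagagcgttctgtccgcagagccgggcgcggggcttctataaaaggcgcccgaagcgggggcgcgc
The letters lie 68, 209 and 176 bases before the start, and in CHAC1 and HERPUD1 they are read on the opposite strand. They occurred in 4 of the 32 ATF4-list genes with a promoter in the table (12.5%), against 1.6% of promoters of tested genes and 3.19% of all promoters. Of the 32 genes, 24 were called lower with NTX-301, among them all 4 with the letters: ASNS by a difference of -0.21, CHAC1 by -0.33, HERPUD1 by -0.52 and MTHFD1L by -0.16. Because the list was drawn up around ATF4, a raised share of its element can follow from the choice of genes. The element's function was not measured.

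Genes of sterol synthesis mostly followed the same direction. Of 43 listed sterol and fatty acid genes, 24 were lower with NTX-301 and 1 higher (median difference -0.088). Of 27 sterol genes, 17 were lower and 0 higher (median -0.14). Of 16 fatty acid genes, 7 were lower, 1 higher and 8 not called, with a median of -0.006 and a range of -0.41 to 0.065. FASN, the fatty acid synthase, read 15.12, 15.16 and 15.13 with NTX-301, 15.55, 15.61 and 15.49 with DAC and 15.58, 15.56 and 15.69 with DMSO. The DAC and DMSO values overlapped and the NTX-301 values lay below both, by a difference of -0.41 from DAC (adjusted p = 6.81e-07, limma). STARD4, a sterol carrier, differed by -0.37, MVD of the mevalonate pathway by -0.33 and INSIG1, which holds back sterol sensing, by -0.29. FADS3, the only member called higher, differed by 0.04 near the bottom of the scale, a call lost after centring, without the mean-variance trend, without DAC replicate 3 and without NTX-301 replicate 2.

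Glycolysis and hypoxia genes were split, with 17 of 36 lower and 9 higher (median difference -0.072). HK3, the hexokinase of granulocytes, read 11.03, 11.07 and 11.05 with NTX-301, 11.68, 11.64 and 11.59 with DAC and 9.85, 9.93 and 9.90 with DMSO. Both drugs stood above the solvent, and NTX-301 below DAC by a difference of -0.58 (adjusted p = 1.4e-08, limma). The lactate exporter SLC16A3 differed by -0.38, whereas the transporter SLC2A3 and the hexokinase HK1 were higher, by 0.86 and 0.29. Of 38 ribosome biogenesis genes, 12 were lower and 1 higher, among the lower ones the rRNA processing factor RRP12 (-0.23). Centring each sample gave 20 lower and 1 higher, and quantile normalization 11 lower and 7 higher. MYC, which is known to drive this programme, differed by -0.20, with NTX-301 values of 16.25 to 16.28 and DAC values of 16.45 to 16.47.

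The genes of the cell cycle were higher with NTX-301, by small amounts over many members. Of 52 DNA replication genes, 33 were higher and 0 lower with limma (median difference 0.089), and of 55 genes of G2 and mitosis, 36 were higher and 1, CKS2, was lower (median 0.10). After centring, 22 replication genes were higher and 2 lower, and 28 mitotic genes higher and 2 lower. E2F2, a transcription factor of the G1 to S transition, differed most: 10.84, 10.76 and 10.65 with NTX-301, 10.22, 10.20 and 10.19 with DAC and 9.95, 10.02 and 10.00 with DMSO. The 3 groups did not overlap, and NTX-301 exceeded DAC by 0.55 (SE 0.041, adjusted p = 2.94e-07, limma). Cyclin E2 (CCNE2) differed by 0.32, DNA ligase LIG1 by 0.22, the sliding clamp PCNA by 0.16, the kinetochore genes NDC80 and SPC25 by 0.26 and 0.24, CDK1 by 0.22 and MKI67 by 0.20. MCM6, CDC6 and CDT1, which license replication origins, were not called.

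Histone and repair genes went the same way. Of 53 listed replication-dependent histone genes, 35 were higher and 5 lower (median difference 0.15). The highest were H4C12 (0.32) and H4C11 (0.29), but many of these genes are near-identical copies among which reads can be split. Single values are therefore uncertain, and the counts and the median need not rest on separate measurements. H3C12 and the linker histone H1-3 were lower, by differences of -0.62 and -0.46, and H3C12 read 5.82 to 5.84 with NTX-301, 6.36 to 6.51 with DAC and 5.79 to 5.82 with DMSO. Of 61 DNA damage and repair genes, 24 were higher (39.3%) and 4 lower (6.56%), with a median of 0.050. Over all genes these shares were 15.4% and 15.0%. After centring, 16 repair genes were higher and 6 lower, against the 24 higher and 4 lower as deposited. Homologous recombination and Fanconi genes held 15 of those 24, with FANCI at 0.30 and FANCG at 0.26. FANCI read 14.10, 14.07 and 14.08 with NTX-301, 13.79, 13.77 and 13.78 with DAC and 13.77, 13.68 and 13.72 with DMSO, so that the NTX-301 values lay above all others.

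Interferon-response genes were also mostly higher with NTX-301. Of 56 members, 49 were listed and tested, 25 were higher and 3 lower (median difference 0.12). BST2, or tetherin, which holds budding virus at the membrane, read 8.77, 8.83 and 8.75 with NTX-301, 8.03, 8.07 and 8.14 with DAC and 7.96, 8.04 and 8.04 with DMSO. The DAC and DMSO values overlapped, and the NTX-301 values lay above both, by 0.71 over DAC (SE 0.043, adjusted p = 4.99e-08, limma). OAS3, which makes the activator of RNase L, differed by 0.49, PARP14 by 0.45, IFITM1 by 0.36 and the transcription factor IRF7 by 0.32. IRF9, a subunit of the factor that interferon activates, differed by 0.01 and was not called. The exceptions were MX2 (-0.35), ISG15 (-0.19) and TRIM25 (-0.16). For MX2, DAC was the highest group at 8.02 to 8.08, with NTX-301 at 7.65 to 7.75 and DMSO at 7.58 to 7.66. ISG15 lost its call without the mean-variance trend, without DAC replicate 1 or 3 and without NTX-301 replicate 1.

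**Figure D4:**
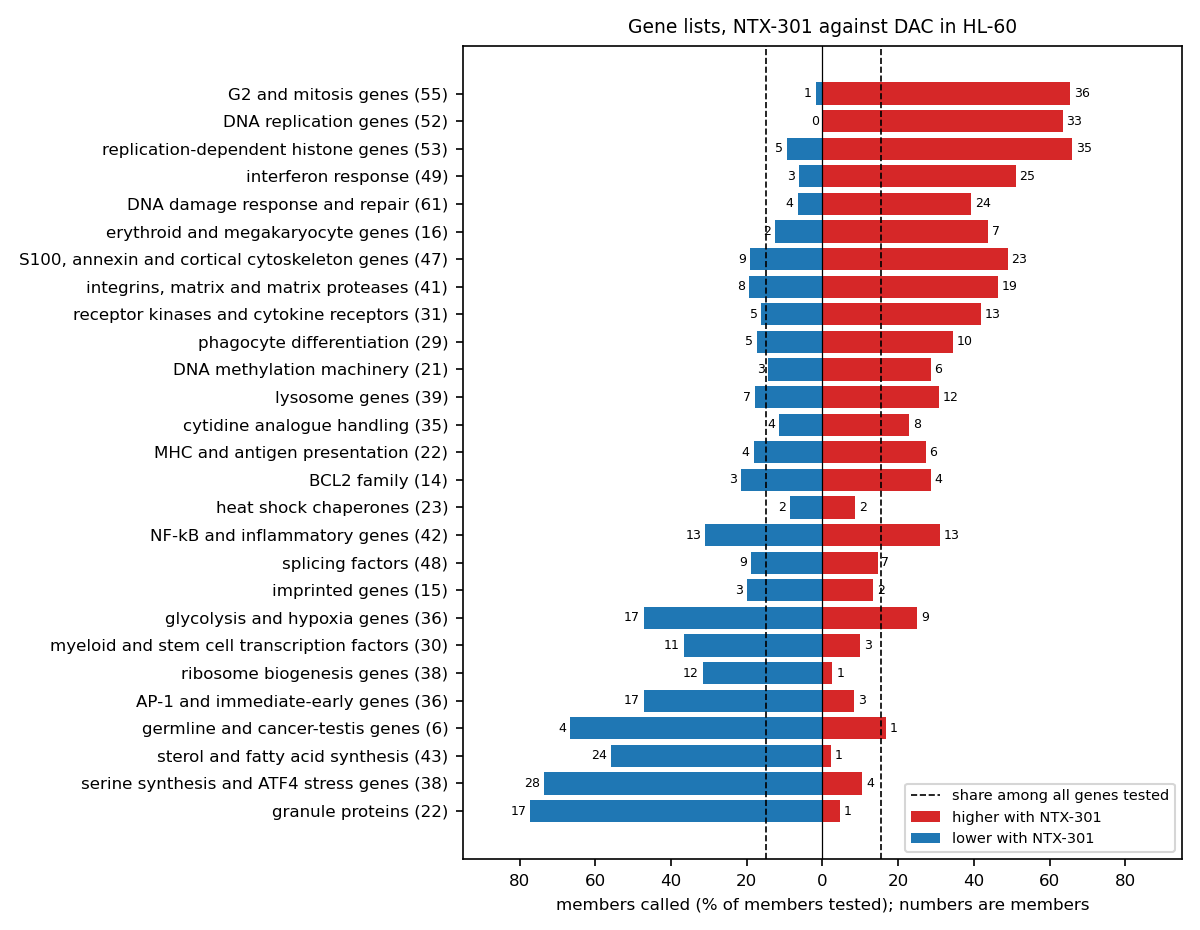
Share of tested members called higher (red, to the right) or lower (blue, to the left) with NTX-301 for each of 27 gene lists, with the number of members beside each bar, the number tested in brackets and dashed lines at the shares over all genes (15.4% and 15.0%). G2 and mitosis genes (36 higher, 1 lower) head the plot and granule proteins (1 higher, 17 lower) close it. The lines cover all classes and levels of genes, and protein-coding genes alone were called more often, 38.9% against 30.4% of all genes.

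Genes of adhesion, matrix and cortex leaned towards higher values with NTX-301. Of 41 listed integrin, matrix and protease genes, 19 were higher and 8 lower, and of 47 S100, annexin and cytoskeleton genes, 23 were higher and 9 lower. After centring these were 15 and 12, and 19 and 11. The calcium-binding protein S100A4 read 11.32, 11.26 and 11.36 with NTX-301, 10.68, 10.64 and 10.76 with DAC and 10.98, 11.02 and 10.99 with DMSO. As with NLRC3, DMSO lay between the drugs, and the difference was 0.62 (adjusted p = 2.08e-08, limma). TPM4, a tropomyosin, differed by 0.58, the tetraspanin CD82 by 0.52 and the protease inhibitor TIMP1 by 0.44. The nuclear lamin LMNA was lower, by a difference of -0.47, and so was the adhesion molecule ALCAM (-0.27).

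Of 39 phagocyte genes, 29 were listed, and CD14, CD36, CD163, MRC1, FCGR3A and FCGR3B were among those without a value. Of the 29, 10 were higher (34.5%), 5 lower (17.2%) and 14 not called, against 15.4% higher and 15.0% lower of all genes. Their median difference was 0.043 as deposited and 0.014 after centring, with 10 higher and 6 lower. The costimulator CD86 read 7.13, 7.11 and 7.10 with NTX-301, 6.61, 6.57 and 6.48 with DAC and 6.60, 6.57 and 6.61 with DMSO, with DAC overlapping DMSO and NTX-301 above both. The integrin ITGAM (CD11b), a marker of mature granulocytes and monocytes, was higher by 0.43. The lectin receptor CLEC12A and the lipopolysaccharide receptor TLR4 were lower, by differences of -0.53 and -0.43. Receptor kinases and cytokine receptors counted 13 higher and 5 lower of 31 (13 and 8 after centring), with IL2RG, the common cytokine receptor chain, at 0.55 and the stem cell factor receptor KIT at 0.46. KIT read 11.12, 11.09 and 11.11 with NTX-301, 10.70, 10.56 and 10.69 with DAC and 11.26, 11.22 and 11.30 with DMSO, so that both drugs lay below the solvent and DAC further.

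Lineage transcription factors were lower more often than higher, 11 (36.7%) against 3 (10.0%) of 30, beside 15.0% lower and 15.4% higher of all genes. The counts depended on the scale, with 14 lower and 3 higher after centring and 9 lower and 5 higher after quantile normalization. PU.1 (SPI1), the factor of myeloid commitment, differed by -0.24 and the repressor BCL6 by -0.46, whereas CEBPA, CEBPE and RUNX1 were not called. The higher members included ID2, an inhibitor of helix-loop-helix factors (0.72), and GATA2, a factor of stem and mast cells (0.55). GATA2 read 12.29, 12.32 and 12.30 with NTX-301, 11.69, 11.79 and 11.77 with DAC and 10.93, 10.97 and 11.02 with DMSO, the order seen for AHNAK. Only 16 of 49 erythroid and megakaryocyte genes were listed, 7 higher and 2 lower. Those higher included F2RL3, RHEX and ITGA2B, the platelet integrin (0.31), the only megakaryocyte marker listed, whose linear value was 448.8 to 459.9 with NTX-301, 360.9 to 373.1 with DAC and 236.7 to 249.6 with DMSO. PF4, PPBP and GP9 were not listed for HL-60.

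The enzymes that the drugs target differed little, with 1 exception. DNMT3B, a de novo methyltransferase, read 9.03, 9.07 and 8.99 with NTX-301, 8.51, 8.49 and 8.34 with DAC and 8.42, 8.50 and 8.48 with DMSO. The DAC values overlapped DMSO and the NTX-301 values lay above both, by 0.59 (SE 0.046, adjusted p = 5.62e-07, limma). DNMT1, the maintenance enzyme that decitabine traps, read 14.35 to 14.39 with NTX-301 and 14.33 to 14.35 with DAC, and the difference of 0.03 was not called (adjusted p = 0.275, limma), though it was called at 0.074 after quantile normalization. DNMT3A differed by 0.12 (adjusted p = 0.113, limma), and it was called at 0.18 when DAC replicate 2 was left out. UHRF1, which brings DNMT1 to the replication fork, differed by -0.07 (adjusted p = 0.0395, limma), a call lost in 5 leave-one-out fits, after quantile normalization and without the mean-variance trend. Of 21 listed genes of DNA methylation, 6 were higher and 3 lower (5 and 4 after centring), the lowest being the demethylase TET3 (-0.17).

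Genes that take up, activate or break down cytidine analogues showed no large difference. Of 35 listed, 8 were higher (22.9%) and 4 lower (11.4%), against 15.4% and 15.0% of all genes. After centring 6 were higher and 9 lower. The balance over all genes turned likewise, from 2622 higher and 2563 lower to 1818 and 4860 of 17046. After quantile normalization, 11 of the listed genes were higher and 3 lower. The range over members was -0.19 to 0.24. DCK, which adds the first phosphate to decitabine, read 11.91, 11.93 and 11.90 with NTX-301 and 11.96, 11.98 and 11.91 with DAC, a difference of -0.04 (SE 0.024, adjusted p = 0.253, limma). SAMHD1, which removes the phosphates again, differed by -0.06 (SE 0.044, adjusted p = 0.328, limma). In both genes the groups overlapped. The lowest member was CMPK1, a pyrimidine monophosphate kinase (-0.19), and the highest TK2, the mitochondrial thymidine kinase (0.24). CDA, which deaminates decitabine, was not listed for HL-60.

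Genes of cell death were called in both directions. PMAIP1, or NOXA, a killer protein of the BCL2 family, read 12.48, 12.50 and 12.50 with NTX-301, 13.06, 13.11 and 13.21 with DAC and 12.93, 12.94 and 12.89 with DMSO. The groups did not overlap, and the difference was -0.63 (adjusted p = 8.93e-09, limma). MCL1, its pro-survival target, was lower by a difference of -0.24, while the pro-death genes BMF and BIK were higher by 0.35 and 0.33. Of 14 listed BCL2 family genes, 4 were higher and 3 lower. DDB2, a damage sensor, was higher by 0.30 and ZMAT3 lower by a difference of -0.29.

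Several lists stood near the shares over all genes or changed balance with the scale. Over all genes, 15.4% were higher and 15.0% lower as deposited. After centring, the calls over all genes leaned lower as well, at 1818 higher and 4860 lower. Lysosome genes counted 12 higher and 7 lower of 39 as deposited, but 8 and 16 after centring, and the higher count fell to 6 without DAC replicate 2. Antigen presentation genes counted 6 higher and 4 lower of 22, and 4 and 8 after centring. Splicing factors counted 7 higher and 9 lower of 48, 6 and 13 after centring, and 15 and 6 after quantile normalization. Heat shock chaperones had 2 called in each direction of 23 as deposited, 2 higher and 6 lower after centring, and 3 and 4 after quantile normalization. Imprinted genes counted 2 higher and 3 lower of 15, with PEG3 at -0.31.

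The difference between the drugs was compared with that in MOLM-13, to ask which part was shared. In MOLM-13, limma called 1297 of 17475 genes (7.42%), 526 higher and 771 lower with NTX-301. The difference itself, taken as MOLM-13 minus HL-60 in a fit of all 18 samples, was called in 2745 of 15474 genes (17.7%). Because each line had its own stated concentration, line and dose cannot be told apart. Of the 24 genes most different in HL-60, 21 were tested in both lines and all 21 differed between them. These genes were picked by their HL-60 difference, which is also part of the quantity tested. That count therefore cannot show how far the differences are particular to HL-60. MMP2, F2RL3 and CCL4 were not tested in MOLM-13.

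In MOLM-13, 4 of those 24 genes were called, all lower with NTX-301 as in HL-60: CXCL8 (-0.62), EGR1 (-0.36), PRG2 (-0.30) and PRTN3 (-0.23). Each was smaller in size than in HL-60, the line by which they were picked. The adjusted p-values of the difference ran from 3.8e-08 (PRG2) to 0.0012 (CXCL8) by limma. AHNAK (0.03), NLRC3 (0.02), GCNA (0.04) and CLC (-0.01) were not called in MOLM-13. HERPUD1 and FASN, also picked by their HL-60 values, were lower in MOLM-13 too, by differences of -0.25 and -0.22. Both differences were smaller in size than in HL-60 (adjusted p of the difference 9e-06 and 0.025, limma). ADAM15, a membrane protease, and RRP12 were lower in both lines, and their difference between lines was not called: ADAM15 was at -0.25 (HL-60) and -0.22 (MOLM-13), and RRP12 at -0.23 and -0.18. Named genes called higher in both lines included ID2, at 0.72 (HL-60) and 0.31 (MOLM-13), and DDB2, at 0.30 and 0.18; the difference between lines was called for ID2 and not for DDB2. Of the named genes, 4 were called in opposite directions. DNASE2, a lysosomal nuclease, was at 0.22 in HL-60 and -0.47 in MOLM-13 (adjusted p of the difference 3.6e-06, limma), and H1-3 at -0.46 and 0.20. BMF stood at 0.35 and -0.10, and HK1 at 0.29 and -0.10.

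**Figure D5:**
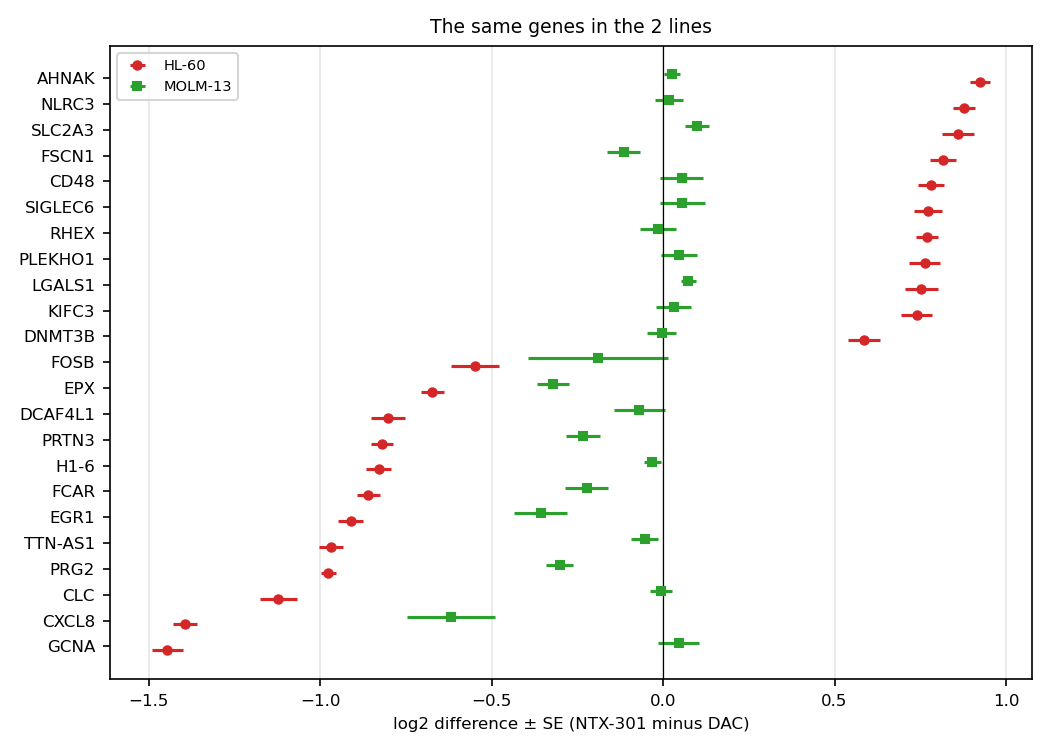
Difference NTX-301 minus DAC (log2, x axis) with SE bars in HL-60 (red circles) and MOLM-13 (green squares) for those of the 24 most different genes that were tested in both lines, with DNMT3B, EPX and FOSB; BLOC1S5-TXNDC5 is left out for its scale. The plotted genes higher in HL-60 lie between -0.12 (FSCN1) and 0.10 (SLC2A3) in MOLM-13, while CXCL8, EGR1, PRG2, EPX and PRTN3 were called lower in both.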

How the data were processed

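RNA of 18 samples (6 groups of 3) was measured, and the 9 HL-60 samples entered the fit described above. The authors deposited, per sample, 1 normalized log2 value per gene; per the submitters' processing notes the tools were FastQC, Trimmomatic 0.38, HISAT2 and StringTie, with build hg19. The normalization method and the use of strand in counting were not given in the sources used here. Read depth is unknown, so errors cover only the spread of 3 replicates.

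The members and lists were chosen with earlier results of these data known. limma 3.58.1 (R 4.3.3; lmFit and eBayes, trend on, two-sided tests) was fitted to genes that reached 1 on the linear scale in 3 or more samples, with DMSO lending only its spread (6 residual degrees of freedom). Calls used Benjamini-Hochberg adjusted p-values, over every gene tested, with a threshold of 0.05. The difference between lines used all 18 samples (12 residual degrees of freedom). Steps were tested on simulated data. Named genes were the 12 highest and 12 lowest called genes with no overlap and a mean of at least 5 in the higher group, up to 2 called members per list and direction, and some set genes; further list members were named after their values were seen. Alternatives were median centring, quantile normalization, no trend, 6 samples only, other filters and thresholds, a replicate block and leaving out each sample. Promoters came from RefSeq (GRCh38.p14), matched by gene identifier for 10992 tested genes. No coordinate of the deposited files was used. Some items are not reported here.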

Additional observations from a re-analysis of the deposited data

Results flagged for a closer look

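The difference between NTX-301 and DAC was itself different in MOLM-13 and HL-60 in 2745 of 15474 genes (limma, 18 samples). The values below are the MOLM-13 difference minus the HL-60 difference on the log2 scale, each with an adjusted p-value under 0.05. Line and stated concentration cannot be told apart. Most of these genes were picked by their HL-60 difference, which in itself favours a difference between the lines. For genes higher with NTX-301 in HL-60 the values were -0.90 for AHNAK, -0.86 for NLRC3, -0.76 for SLC2A3, -0.93 for FSCN1, -0.73 for CD48, -0.72 for SIGLEC6, -0.78 for RHEX, -0.72 for PLEKHO1, -0.68 for LGALS1, -0.71 for KIFC3 and -0.59 for DNMT3B. For genes lower with NTX-301 in HL-60 they were 1.49 for GCNA, 0.77 for CXCL8, 1.12 for CLC, 0.67 for PRG2, 0.91 for TTN-AS1, 0.55 for EGR1, 0.64 for FCAR, 0.80 for H1-6, 0.59 for PRTN3, 0.73 for DCAF4L1 and 0.35 for EPX. BLOC1S5-TXNDC5 gave 3.51, with an SE of 0.95 and an adjusted p of 0.0145 (limma).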

How the results depend on the processing

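Of 121 named genes, 112 kept their direction and their side of the threshold under every alternative run, and none of 1934 values changed sign; the 24 genes with the largest differences all kept theirs. The exceptions were ISG15, HEXA, UHRF1, FADS3, HSPA1B, MKRN3 and CLK3, which lost their call in at least 1 alternative, and DNMT1 (after quantile normalization) and DNMT3A (without DAC replicate 2), which gained it; beyond the fewer samples of the leave-one-out fits, the cause was not tested. The count of called genes in HL-60 was 710 with a minimum difference of 0.25, 101 with 0.5 and 3317 at an adjusted p under 0.01. For the difference between lines these counts were 791, 90 and 1447. Leaving out 1 sample gave 4205 (without NTX-301 replicate 3) to 5304 calls in HL-60 and 2128 to 2858 between lines. Centring gave 6678 calls in HL-60, and 3543 between lines, 2565 higher and 978 lower in MOLM-13 against 1289 and 1456 as deposited. With the replicate number as a block there were 5016 calls in HL-60 and 2450 between lines. Same-numbered DAC and NTX-301 samples correlated in their deviations by 0.0002, 0.12 and 0.092, and differently numbered ones by -0.12 to 0.023. Whether the numbers pair the samples was not tested. Of 1344 list counts and medians, 121 moved. Depth is unknown, and the small spread of low genes, whose origin is not given in the sources used here, may limit what can be called among them.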
